A study of Homo sapiens with 8 samples.

Results

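NRF2 target genes, ferritin genes and glutathione synthesis genes were followed across 4 groups of H1703, a long-established human cell line that the labels class as squamous cell carcinoma of the lung. The genes, 9 in all, were chosen by name: NFE2L2, which encodes NRF2, NQO1, HMOX1, the ferritin genes FTH1 and FTL, the glutathione synthesis genes GCLC and GCLM, and the thioredoxin system genes TXN and SRXN1. Of these 9, 7 have values of their own among the 28590 loci of the tables. FTL and SRXN1 are listed only inside loci that merge several genes, so the values of those loci are given under the name of the locus and are not counted with the 7. All 7 passed the filter on low values, as did both merged loci.

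The groups were detached cells with a SPIB knockdown, detached control cells, attached cells with a SPIB knockdown and attached control cells, with 2 libraries each. Control cells carried a luciferase knockdown. SPIB is a transcription factor of the ETS family, and the series title asks about its part in resistance to anoikis, the death of cells that lose their attachment. The labels give floating for 12 hours as the treatment of all 8 samples, the attached ones included. They call the 2 samples of a group biological repeats without naming separate cultures, so the p-values measure only the spread between these samples. Not given in the sources used here are the knockdown reagent, its target sequence and the number of clones or pools behind each group.

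NRF2 is a transcription factor of the cap'n'collar family that is normally held in the cytoplasm by KEAP1 and passed to the CUL3 ubiquitin ligase for degradation. When oxidants or electrophiles modify KEAP1, NRF2 escapes, pairs with a small MAF protein and binds antioxidant response elements near genes for quinone reduction, haem breakdown, iron storage, glutathione synthesis and the thioredoxin system. Its activity is therefore set largely at the level of the protein, which these RNA values do not measure. Ferritin is in addition controlled in translation by iron regulatory proteins, which bind an element in the ferritin messenger RNA.

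FPKM, fragments per kilobase of transcript, scaled to the mapped fragments of a library, summed to 707883 to 786285 per library. Relative read depth, estimated from the low values, spanned a range of 1.60-fold, and the absolute depth is unknown. SPIB is listed only in a locus merged with POLD1 and CTD-2545M3.6 (XLOC_025378). FPKM of that locus was 41.8 and 44.3 in detached knockdown libraries and 44.9 and 49.8 in detached control libraries. It was 47.5 and 52.5 in attached knockdown libraries and 55.9 and 51.2 in attached control libraries. Neither difference passed the test (adjusted p = 0.574 and 0.594 by limma), and the share of SPIB in this locus cannot be separated, so the knockdown could not be checked. The mitochondrial locus that merges MT-CO1 with other genes, and that of MT-ND6, are listed at 0 in 1 library of each group. These are detached knockdown replicate 1, detached control replicate 1, attached knockdown replicate 2 and attached control replicate 1. In the other library of each group the merged locus had 47540 to 47980 FPKM, the highest value of the library, and MT-ND6 had 1199 to 1305 FPKM. Of 6 squamous markers, 3 have values of their own, and they are low: TP63 stayed at or below 0.32 FPKM, DSG3 at or below 0.04 FPKM and SOX2 at or below 2.68 FPKM in every library. Their sum was 2.05 to 2.93 FPKM in detached knockdown, 2.11 to 2.76 FPKM in detached control, 1.05 to 1.25 FPKM in attached knockdown and 1.91 to 2.12 FPKM in attached control libraries. Measured markers of adenocarcinoma (NAPSA and SFTPB), leukocytes (PTPRC, CD3E and CD14) and endothelium (VWF alone) all stayed below 1 FPKM in every library. The adenocarcinoma marker NKX2-1 and the endothelial markers PECAM1 and CDH5 had no values of their own. VIM, a mesenchymal marker, reached 2056 to 2550 FPKM. Of the other mesenchymal markers, ZEB1 had 21.5 to 27.7 FPKM, FN1 had 2.05 to 4.42 FPKM and PDGFRA had no values of its own.

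The comparison of libraries labelled SPIB knockdown with control libraries asks what the knockdown changed in these genes, and part of the set was lower in the libraries so labelled. In the average over detached and attached cells, NQO1 fell by 21.0%, FTH1 fell by 16.5%, NFE2L2 fell by 27.4% and HMOX1 rose by 13.8%, all on the scale of FPKM + 1. GCLC, GCLM and TXN did not pass the test. The locus that merges FTL with BAX fell by 18.9%. Below, each difference is a log2 fold change of FPKM + 1, knockdown minus control or detached minus attached, with its standard error (SE), and the adjusted p is that of limma across 13438 genes with Benjamini-Hochberg adjustment. A gene is called changed, and said to have risen or fallen, at an adjusted p under 0.05.

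**Figure D1:**
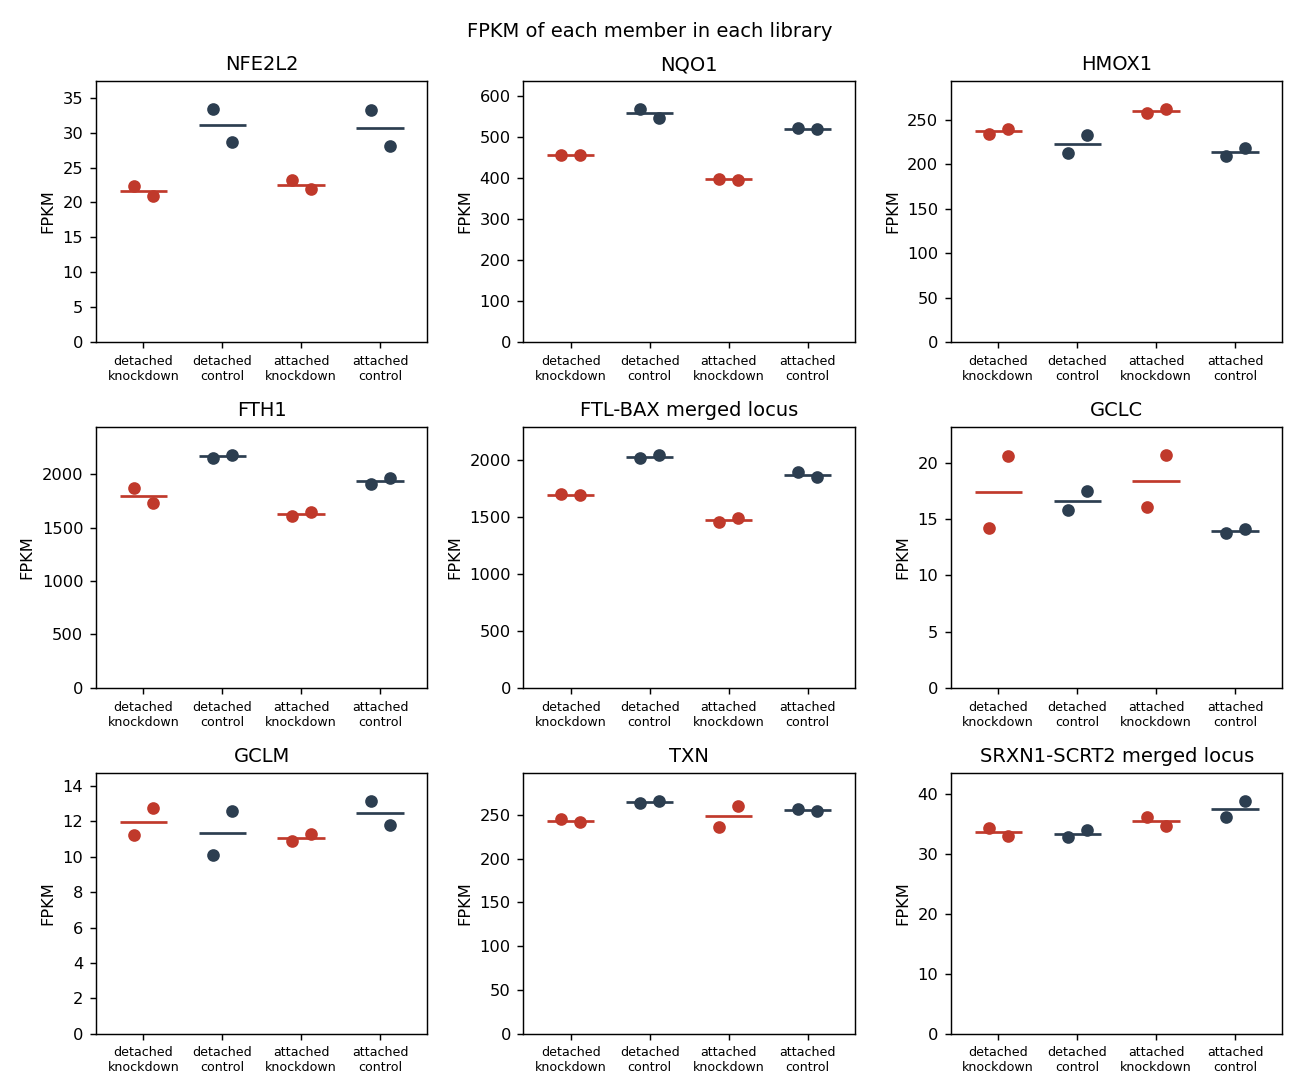
FPKM (axis from 0) of the 7 measured genes and of the 2 merged loci in each library of the 4 groups; points are libraries, lines are group means, with 2 libraries per group. Knockdown libraries lie below control libraries for NFE2L2 (20.9 to 23.2 against 28.1 to 33.4 FPKM) and NQO1 (396 to 457 against 518 to 568 FPKM), and above them for HMOX1.

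NFE2L2, the gene of the regulator itself (XLOC_030261, chromosome 2, 178092049 to 178257425, hg19), had 22.4 and 20.9 FPKM in detached knockdown libraries, against 33.4 and 28.7 FPKM in detached control libraries. It had 23.2 and 21.9 FPKM in attached knockdown libraries, against 33.3 and 28.1 FPKM in attached control libraries. All 4 knockdown libraries lay below all 4 control libraries, and the control libraries spread more widely than the knockdown ones. The group means were 21.6 ± 1.04 FPKM in detached knockdown, 31.1 ± 3.29 in detached control, 22.5 ± 0.916 in attached knockdown and 30.7 ± 3.71 in attached control (SD, n = 2). The difference was −0.50 ± 0.10 in detached cells (adjusted p = 0.102 by limma) and −0.43 ± 0.10 in attached cells (adjusted p = 0.0991 by limma), so neither passed the test alone. Averaged over detached and attached cells NFE2L2 fell by 0.46 on the log2 scale, with a 95% interval of −0.63 to −0.29 (adjusted p = 0.017 by limma). That call ended when any of 5 libraries was left out. The adjusted p was then 0.0531 without attached control replicate 1, 0.0504 without attached knockdown replicate 1 and 0.0585 without attached knockdown replicate 2. It was 0.057 without detached control replicate 1 and 0.0666 without detached knockdown replicate 2, and the difference stayed negative each time. With the libraries whose mitochondrial locus is listed at 0 as a covariate, the adjusted p was 0.0192. The averaged call was also lost with no filter on low values (adjusted p = 0.0565 by limma) and without the intensity trend (0.0533).

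The NFE2L2 locus is 165377 bases long and overlaps the locus of AGPS, an enzyme of ether lipid synthesis, by 549 bases. Strandedness of the libraries is not given, so reads in the overlap could belong to either gene. AGPS had 46.3 to 63.9 FPKM over the 8 libraries. By knockdown its difference was 0.03 ± 0.06 in detached cells and 0.17 ± 0.06 in attached cells, and neither passed the test (adjusted p = 0.894 and 0.211 by limma). AGPS was named after its values were seen, and the part of the overlap in the NFE2L2 values was not tested.

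NQO1, a quinone reductase that spares cells the redox cycling of quinones and a classical NRF2 target, lies at chromosome 16, 69740302 to 69766258 (XLOC_020269, hg19). It had 457 and 456 FPKM in detached knockdown libraries, against 568 and 547 FPKM in detached control libraries. In attached cells it had 397 and 396 FPKM in knockdown libraries, against 522 and 518 FPKM in control libraries. Knockdown and control libraries did not overlap in either state, and the repeats of a knockdown group lay closer together than those of the control group. NQO1 fell by 0.29 ± 0.03 in detached cells (−18.1%, adjusted p = 0.00862 by limma) and by 0.39 ± 0.03 in attached cells (−23.7%, adjusted p = 0.00309 by limma). Without the intensity trend the adjusted p was 0.168 in detached and 0.0592 in attached cells by limma, so both calls were lost. With only the groups compared it was 0.116 in detached cells. The averaged fall was 0.34 ± 0.02 (adjusted p = 0.000501 by limma). It passed the test without any 1 of the 8 libraries, and so did the fall in attached cells. The call in detached cells ended without detached knockdown replicate 1 (adjusted p = 0.0787), without detached knockdown replicate 2 (0.0766) or without detached control replicate 1 (0.0775).

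The promoter of NQO1, which had the smallest p for knockdown among the 7 genes with values of their own, is printed from RefSeq (GRCh38.p14, chr16:69726511-69726810, minus strand, 250 bases before to 50 bases after the start), beside that of GCLM, the only matched gene of the set whose window holds the core of an antioxidant response element (chr1:93909381-93909680, minus strand). Capitals mark that core.
NQO1 promoter: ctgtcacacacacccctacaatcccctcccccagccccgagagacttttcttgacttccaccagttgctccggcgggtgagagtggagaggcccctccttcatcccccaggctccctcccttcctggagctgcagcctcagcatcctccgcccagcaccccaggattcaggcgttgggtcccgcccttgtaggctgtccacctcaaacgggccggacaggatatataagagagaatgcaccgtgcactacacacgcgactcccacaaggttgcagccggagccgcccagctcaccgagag
GCLM promoter: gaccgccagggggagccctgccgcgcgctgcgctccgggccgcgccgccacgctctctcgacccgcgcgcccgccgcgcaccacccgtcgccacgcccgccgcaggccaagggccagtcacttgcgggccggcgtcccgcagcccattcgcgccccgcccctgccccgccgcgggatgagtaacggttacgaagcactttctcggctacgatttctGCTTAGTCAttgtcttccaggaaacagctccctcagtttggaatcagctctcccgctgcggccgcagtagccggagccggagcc
Of the 9 genes, 7 had a RefSeq window, NFE2L2 with 2 starts, and FTH1 and HMOX1 had none. Only these windows were searched, so a window without a match does not show that its gene lacks an element farther from the start. The core was searched as TGACNNNGC on both strands and stands in 13.3% of 35116 promoter windows. In GCLM it lies at −34 to −26 on the other strand, printed as GCTTAGTCA, and the remaining 7 windows have no match. The word GAGGAA, used here for ETS factors and searched on both strands, stands in 27.9% of all windows, and within the set it is found in SRXN1 alone (32 to 37 bases after the start). Other forms of ETS sites were not searched, so a window without this word is not shown to lack such a site.

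HMOX1, haem oxygenase 1, breaks haem down to iron, carbon monoxide and biliverdin and is induced through NRF2 and through haem itself (XLOC_033266, chromosome 22, 35776196 to 35790207, hg19). It moved opposite to NQO1. FPKM was 234 and 239.7 in detached knockdown libraries, against 213 and 233 in detached control libraries, and 258 and 262 in attached knockdown libraries, against 209 and 218 in attached control libraries. All 4 knockdown libraries lay above all 4 control libraries, but in detached cells the nearest pair was 234 FPKM in a knockdown library and 233 FPKM in a control library. HMOX1 rose in attached cells by 0.28 ± 0.05 (21.6%, adjusted p = 0.0406 by limma). In detached cells the difference was 0.09 ± 0.05 with a 95% interval of −0.02 to 0.21 (adjusted p = 0.533 by limma). On average it rose by 0.19 ± 0.03 (adjusted p = 0.0297 by limma).

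The HMOX1 calls rest on few libraries. Without any 1 of the 4 attached libraries, or either detached knockdown library, the call in attached cells ended, with an adjusted p of 0.0721 or 0.0719 once a detached knockdown library (replicate 1 or 2) was left out, 0.137 or 0.157 for the attached knockdown libraries and 0.19 or 0.141 for the attached control libraries, replicate 1 named first each time. The averaged call held only without detached control replicate 2. In the same order its adjusted p became 0.0803 or 0.0978 (detached knockdown), 0.0753 or 0.0878 (attached knockdown) and 0.106 or 0.0718 (attached control), and 0.0681 when detached control replicate 1 was left out. With the mitochondrial locus covariate the adjusted p in attached cells was 0.0528, and with quantile normalization it was 0.0545. The difference was positive in all of these fits.

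FTH1, the ferritin heavy chain, oxidises iron for storage within the ferritin shell, and its RNA was the most abundant of the set (XLOC_009530, chromosome 11, 61727190 to 61781018, hg19). It had 1869.8 and 1725.5 FPKM in detached knockdown libraries, against 2149 and 2180.4 FPKM in detached control libraries. In attached cells it had 1605 and 1647 FPKM in knockdown libraries, against 1911 and 1963 FPKM in control libraries. Every knockdown library was below every control library, with the widest spread between the repeats in detached knockdown cells (SD 102 FPKM, against 22.2 FPKM in detached control). FTH1 fell by 0.27 ± 0.04 in detached cells (−17.0%, adjusted p = 0.0375 by limma) and by 0.25 ± 0.04 in attached cells (−16.0%, adjusted p = 0.0315 by limma). The averaged fall was 0.26 ± 0.03 (adjusted p = 0.00427 by limma) and held without any 1 of the 8 libraries. Without the intensity trend the averaged call was lost (adjusted p = 0.0555 by limma).

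Within a single attachment state the FTH1 call was less firm. In detached cells it held only without detached knockdown replicate 1. Leaving out detached knockdown replicate 2 gave an adjusted p of 0.135. Leaving out replicate 1 or replicate 2 gave 0.193 or 0.224 for the detached control, 0.0656 or 0.0663 for the attached knockdown and 0.0813 or 0.0809 for the attached control group. In attached cells the call ended with either library left out of 3 groups, with an adjusted p of 0.063 or 0.0625 (detached control, replicate 1 or 2), 0.137 or 0.107 (attached knockdown) and 0.133 or 0.177 (attached control). With the mitochondrial locus covariate the adjusted p was 0.0667 in detached and 0.0528 in attached cells. The tables list 13 loci named as FTH1 pseudogenes, whose mean FPKM summed to 8.02, and the 2 loci that overlap FTH1 averaged at most 0.211 FPKM, and how reads shared with them were assigned was not tested.

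FTL, the light chain that helps form the iron core of ferritin, shares 1 locus with BAX, a pro-apoptotic BCL2 family gene (XLOC_025333, chromosome 19, 49458039 to 49470138, hg19). FPKM of the FTL and BAX locus was 1707 and 1693 in detached knockdown libraries, against 2018.5 and 2049.6 in detached control libraries. It was 1457 and 1496 in attached knockdown libraries, against 1897 and 1852 in attached control libraries. Knockdown libraries were again all below control libraries, with repeats close together. The locus fell by 0.26 ± 0.03 in detached cells (adjusted p = 0.00829 by limma) and by 0.34 ± 0.03 in attached cells (adjusted p = 0.00309 by limma). How much of this belongs to FTL and how much to BAX cannot be told apart, and for that reason no ratio of FTH1 to FTL was taken. The fall in detached cells ended without detached knockdown replicate 1 (adjusted p = 0.0672) or 2 (0.0766) and without detached control replicate 1 (0.0742) or 2 (0.0912). The fall in attached cells and the averaged fall of 0.30 ± 0.02 (adjusted p = 0.000501 by limma) held without any 1 library. Without the intensity trend the adjusted p was 0.0723 in attached and 0.206 in detached cells, and in detached cells it was 0.0682 with no filter and 0.0981 with only the groups compared.

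The iron-responsive element of ferritin messages is shown for FTL because the matched FTL window reaches into it (GRCh38.p14, chr19:48965332-48965358, plus strand, capitals mark the loop word). FTH1, which carries such an element as well, had no window.
FTL site: tgtctcttgCTTCAACAGTGtttggac
The loop word, a C followed by any 5 bases and then CAGTG, was searched on the gene strand only, and 10.2% of all windows hold it. In FTL it lies at 33 to 43 bases after the start. TXN also has a match, at −247 to −237, upstream of its start, where it would not be transcribed from that start. These RNA values do not show how far ferritin messages were translated.

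GCLC and GCLM encode the catalytic and the modifier subunit of glutamate-cysteine ligase, which makes the first and rate-limiting step of glutathione synthesis. They were the lowest of the set and neither passed the test in any comparison. GCLC (XLOC_044455, chromosome 6, 53362139 to 53481969, hg19) had 14.2 and 20.6 FPKM in detached knockdown libraries, against 15.8 and 17.5 FPKM in detached control libraries. It had 16.1 and 20.7 FPKM in attached knockdown libraries, against 13.8 and 14.1 FPKM in attached control libraries. The groups overlapped in detached cells and did not in attached cells, where the knockdown repeats were also the farther apart. The knockdown difference in GCLC was 0.37 ± 0.18 in attached cells (adjusted p = 0.347 by limma) and 0.04 ± 0.18 in detached cells (adjusted p = 0.954 by limma). The 95% interval in detached cells, −0.37 to 0.45, would take in a fall of the size seen in NQO1 in detached cells (−0.29). It would also take in a rise of the size seen in HMOX1 in attached cells (0.28), but not the NQO1 fall in attached cells (−0.39).

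GCLM (XLOC_003577, chromosome 1, 94350557 to 94375308, hg19) had 11.2 and 12.7 FPKM in detached knockdown libraries, against 10.1 and 12.6 FPKM in detached control libraries. It had 10.9 and 11.3 FPKM in attached knockdown libraries, against 13.2 and 11.8 FPKM in attached control libraries. The repeats of a group differed as much as the groups did in detached cells, and in attached cells the control libraries were the higher ones. The averaged knockdown difference in GCLM was −0.04, with a 95% interval of −0.24 to 0.16 (adjusted p = 0.849 by limma). The ratio of GCLC to GCLM, which does not depend on how a library is scaled, was 1.26 and 1.62 in detached knockdown, 1.56 and 1.39 in detached control, 1.48 and 1.83 in attached knockdown and 1.05 and 1.20 in attached control libraries. On the log2 scale it averaged 0.62 ± 0.22 in the 4 knockdown libraries and 0.36 ± 0.25 in the 4 control libraries (SD). The difference of 0.26 did not pass a two-sided exact permutation test (p = 0.2, where the smallest possible is 0.0286). Libraries were exchanged across attachment states in this test, so differences between the states add to the spread it works with.

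TXN encodes thioredoxin, which reduces disulphides in other proteins (XLOC_054477, chromosome 9, 113006091 to 113058570, hg19). It had 245 and 242 FPKM in detached knockdown libraries, against 264 and 266 FPKM in detached control libraries, and 236 and 260.4 FPKM in attached knockdown libraries, against 257 and 254 FPKM in attached control libraries. In detached cells the groups did not overlap, and in attached cells the control libraries lay between the knockdown ones. The differences in TXN were −0.12 ± 0.05 in detached cells (adjusted p = 0.374 by limma) and −0.04 ± 0.05 in attached cells (adjusted p = 0.714 by limma). The 2 loci named as TXN pseudogenes summed to 0.254 FPKM, and how reads shared with such copies were assigned was not tested.

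SRXN1 encodes sulfiredoxin, which repairs over-oxidised peroxiredoxins. It is listed in a locus merged with SCRT2, a transcriptional repressor gene, and a clone-named gene (XLOC_031487, chromosome 20, 627259 to 656823, hg19). The SRXN1 locus had 34.3 and 33.0 FPKM in detached knockdown libraries and 32.8 and 33.9 in detached control libraries. It had 36.2 and 34.6 FPKM in attached knockdown libraries and 36.2 and 38.9 in attached control libraries. Knockdown did not pass the test in either state, with 0.01 ± 0.06 in detached cells (adjusted p = 0.961 by limma) and −0.08 ± 0.06 in attached cells (adjusted p = 0.568 by limma). All 4 detached libraries lay below all 4 attached ones, and the averaged detachment difference of −0.12 ± 0.04 missed the threshold (adjusted p = 0.111 by limma). Of all genes 11.6% had the detached libraries below in this way and 6.79% above.

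**Figure D2:**
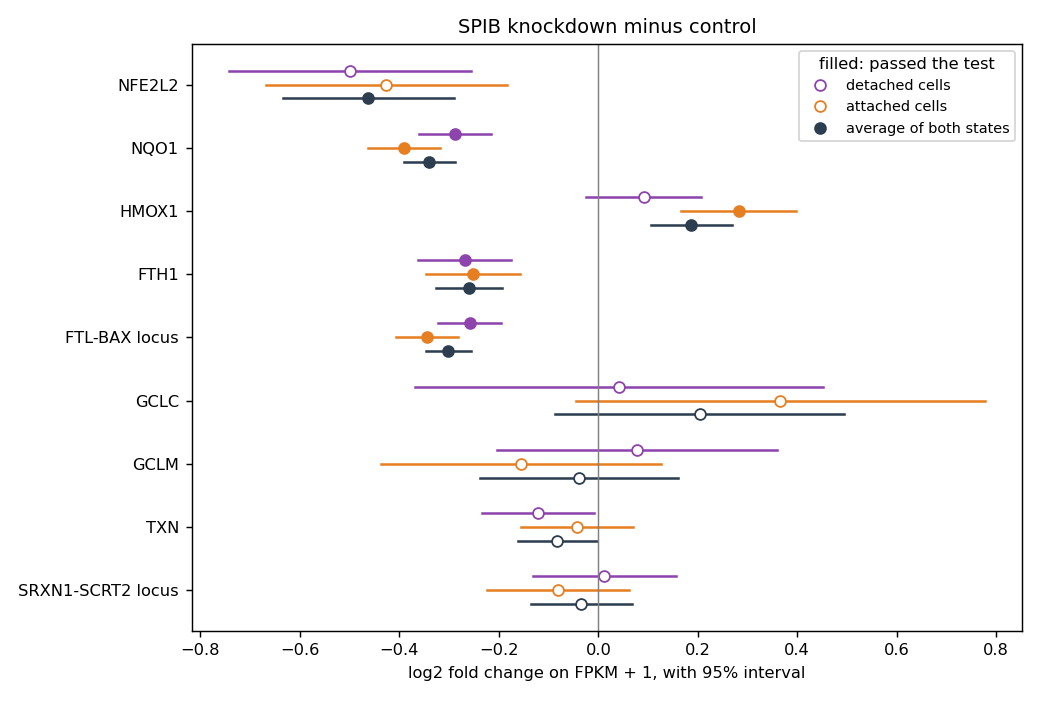
Log2 fold change of FPKM + 1 by SPIB knockdown (horizontal axis) for each gene and merged locus, in detached cells, in attached cells and averaged over both; points are limma estimates, bars 95% intervals, and filled points passed the test. NQO1, FTH1 and the FTL and BAX locus were lower in both states, HMOX1 was higher in attached cells and on average, and the intervals of GCLC were the widest.

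Read as counts against all genes, 2 of the 7 measured genes were called in detached cells, NQO1 and FTH1, both lower, while 0.737% of all 13438 genes were called (0.662% lower and 0.0744% higher). In attached cells 3 of the 7 were called, with NQO1 and FTH1 lower and HMOX1 higher, against 1.85% of all genes (1.21% lower and 0.64% higher). For the average it was 4 of 7, with NFE2L2, NQO1 and FTH1 lower and HMOX1 higher, against 4.24% of all genes (2.84% lower and 1.4% higher). The set had been proposed with results of these data in view, so these shares describe it. Its median log2 difference was −0.12 in detached cells, −0.16 in attached cells and −0.08 on average, against 0.00, 0.01 and 0.00 over all genes. In the split of all 8 libraries, NFE2L2, NQO1 and FTH1 had their 4 knockdown libraries below the 4 control libraries, which 4.51% of all genes did. HMOX1 had them above, which 3.47% of all genes did. GCLC, GCLM and TXN overlapped. Within 1 state, with 2 libraries against 2, the groups of 5 of the 7 genes did not overlap in detached cells and those of 6 of the 7 did not in attached cells, against 44% and 46.8% of all genes.

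No gene of the set was called for the interaction (the effect of knockdown among detached cells less its effect among attached ones), and limma called 0 of all 13438 genes there (0%). At an unadjusted p under 0.05 there were 898 genes, 2 of them in the set. For NQO1 the interaction was 0.10 ± 0.04 (adjusted p = 0.745 by limma), the fall being smaller in detached cells. For HMOX1 it was −0.19 ± 0.07 (adjusted p = 0.692 by limma), the rise being smaller in detached cells. FTH1 had an interaction of −0.02 ± 0.06 and NFE2L2 one of −0.07 ± 0.15. That HMOX1 passed in attached cells and not in detached cells is therefore not shown to be a difference between them.

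Detachment asks what loss of attachment did, and it raised NQO1 and FTH1 in the average over knockdown and control cells. NQO1 rose by 0.15 ± 0.02 (adjusted p = 0.00554 by limma) and FTH1 by 0.15 ± 0.03 (adjusted p = 0.0137 by limma). The FTL and BAX locus rose by 0.16 ± 0.02 (adjusted p = 0.00304 by limma). NFE2L2 itself differed by −0.02 ± 0.07 and TXN by 0.01 ± 0.03, and neither passed the test. So 2 of the 7 genes were called, both higher, against 15.6% of all genes, of which 5.48% were higher and 10.1% lower. The FTH1 call ended without detached control replicate 2 (adjusted p = 0.0505) or attached control replicate 1 (0.0521), while those of NQO1 and of the FTL and BAX locus held without any 1 library.

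In knockdown cells alone, detachment raised NQO1 by 0.20 ± 0.03 (15.1%, adjusted p = 0.0132 by limma), the only 1 of the 7 called there, against 7.11% of all genes (2.05% higher and 5.06% lower). NQO1 lost that call without detached knockdown replicate 1 (adjusted p = 0.0662) or 2 (0.0785) and without attached knockdown replicate 1 (0.0563) or 2 (0.0664). The FTL and BAX locus rose by 0.20 ± 0.03 in knockdown cells (adjusted p = 0.00881 by limma), a call that ended without detached knockdown replicate 1 (0.051) or 2 (0.0577). FTH1 differed by 0.14 ± 0.04 (adjusted p = 0.0788 by limma). In control cells limma called 0 of the 7, against 3.15% of all genes (0.893% higher and 2.25% lower), and NQO1 and FTH1 had an unadjusted p under 0.05 there. NQO1 differed by 0.10 ± 0.03 in control cells (adjusted p = 0.131 by limma) and FTH1 by 0.16 ± 0.04 (adjusted p = 0.0804 by limma). HMOX1 was 0.13 ± 0.05 lower on detachment of knockdown cells (adjusted p = 0.154 by limma) and 0.06 ± 0.05 higher on detachment of control cells (adjusted p = 0.565 by limma), and passed in neither. On detachment the libraries of 3 of the 7 genes did not overlap in knockdown cells and those of 4 of the 7 did not in control cells, against 54% and 51.9% of all genes. VIM, the abundant mesenchymal marker, fell on detachment by 0.28 in knockdown cells (adjusted p = 0.00198 by limma) and by 0.21 in control cells (adjusted p = 0.00944 by limma), and its part in these results was not tested. The mesenchymal markers ZEB1 (−0.29 in knockdown and 0.11 in control cells) and FN1 (0.16 and −0.14) did not pass the test on detachment. SOX2, at 1.98 to 2.68 FPKM in detached and 0.734 to 1.99 FPKM in attached libraries, was called higher on averaged detachment (0.49 on the log2 scale), and its part was not tested either. In bulk RNA a change in the number of cells of a kind and a change of RNA per cell cannot be told apart.

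**Figure D3:**
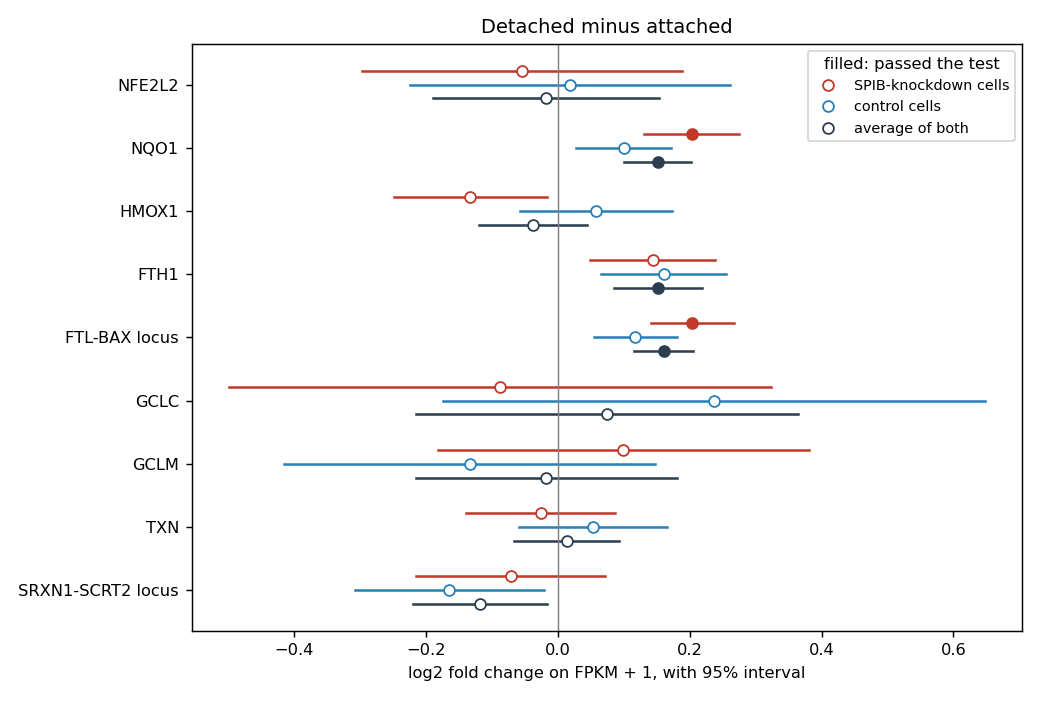
Log2 fold change of FPKM + 1 on detachment (horizontal axis) for each gene and merged locus, in SPIB-knockdown cells, in control cells and averaged over both; points are limma estimates, bars 95% intervals, and filled points passed the test. NQO1, FTH1 and the FTL and BAX locus lie above 0 in both kinds of cells, and NFE2L2 lies near 0.

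NQO1 was lowest in attached knockdown cells and highest in detached control cells. NQO1 averaged 456 ± 1.05 FPKM in detached knockdown, 557 ± 14.8 in detached control, 396 ± 0.301 in attached knockdown and 520.1 ± 2.80 in attached control (SD, n = 2). FTH1 averaged 1798 ± 102 FPKM in detached knockdown, 2165 ± 22.2 in detached control, 1626 ± 29.5 in attached knockdown and 1937 ± 36.9 in attached control, which puts the 4 groups in the same order. HMOX1 had 237 ± 3.76 FPKM in detached knockdown, 223 ± 14.1 in detached control, 260.0 ± 3.09 in attached knockdown and 214 ± 6.19 in attached control, so that its highest level fell in the group where NQO1 was lowest.

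Per length of transcript the genes kept nearly the same order of FPKM in all 4 groups. FTH1 was highest, followed by the FTL and BAX locus, NQO1, TXN, HMOX1, the SRXN1 locus, NFE2L2, GCLC and GCLM. HMOX1 stood above TXN in attached knockdown cells only, where the libraries of HMOX1 and TXN overlapped. The SRXN1 locus and NFE2L2 overlapped in detached control cells. Libraries of all other neighbours in the order did not overlap within a group. The transcript of the regulator was thus among the least abundant of the set, and the ferritin loci exceeded it by the widest margin.

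Across the 8 libraries the levels of some genes went together, as a description of points that share the group differences given above. NQO1 and FTH1 had a Pearson r of 0.954, and NQO1 and NFE2L2 one of 0.838. NQO1 and HMOX1 had an r of −0.895, and HMOX1 and NFE2L2 one of −0.841. By the same measure the genes most like NQO1, among 6325 with a mean of at least 10 FPKM, were LAMP2 (r = 0.988), ERAP2 (0.981), NUCB1 (0.979), S100A6 (0.979) and FBXO2 (0.977). Those most like FTH1 were FBXO2 (0.987), SLC12A7 (0.986), PTK7, B4GALNT4 and TMEM59 (0.98 each). For NFE2L2 they were SGPL1 (0.972), PHF6 (0.964), NOMO3 (0.958), IL27RA (0.957) and HIPK1 (0.955).

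The wider pathway was read from 6 lists of 67 genes in all, of which 46 were tested, 11 had no locus of their own and the rest were below the filter. On average over detached and attached cells, knockdown raised 1 of these 46 genes (2.17%) and lowered 7 (15.2%), against 1.4% of all genes higher and 2.84% lower, and the median difference was −0.05. These 8 calls became 3 to 6 with 1 library left out and 3 to 9 under the processing alternatives. In detached cells 0 rose and 2 fell (4.35%), against 0.0744% of all genes higher and 0.662% lower. In attached cells 0 rose and 4 fell (8.70%), against 0.64% of all genes higher and 1.21% lower. Of the 35 calls of pathway genes over all comparisons, 14 held without any 1 library.

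The NADPH supply list, whose enzymes feed electrons to the glutathione and thioredoxin systems, had 3 of its 5 tested genes lower on average and 0 higher, with a median of −0.20 and all 5 estimates negative. Of all genes, 2.84% were lower and 1.4% higher in that comparison, with a median of 0.00, which also stands beside the averaged knockdown counts of the lists below. The lists were chosen with earlier results of these data known, so such counts only describe them. IDH1, the cytosolic isocitrate dehydrogenase, had 30.2 and 27.5 FPKM in detached knockdown libraries and 37.5 and 37.0 in detached control libraries. It had 17.6 and 19.1 FPKM in attached knockdown libraries and 31.7 and 28.5 in attached control libraries. It was lowest in attached knockdown cells, as NQO1 was, and fell by 0.52 ± 0.06 on average (adjusted p = 0.00425 by limma), which held without any 1 library. TKT, a pentose phosphate enzyme, fell by 0.20 ± 0.03 (adjusted p = 0.0107 by limma), lost without detached control replicate 2 (0.0506) or attached control replicate 1 (0.0505).

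Among 10 tested genes of glutathione synthesis and use, 1 fell by knockdown and 0 rose, with a median of 0.00 to 2 decimals. The one that fell was GPX4, the selenoprotein that uses glutathione to reduce lipid peroxides. GPX4 had 139 and 140.0 FPKM in detached knockdown libraries, against 430 and 435 FPKM in detached control libraries, and 126 and 129 FPKM in attached knockdown libraries, against 411 and 409.5 FPKM in attached control libraries. GPX4 fell by 1.62 ± 0.03 in detached cells (adjusted p = 2.01e-06 by limma) and fell by 1.68 ± 0.03 in attached cells (adjusted p = 1.56e-06 by limma). Both values are larger in size than those of the 7 genes and held without any 1 library. Of 8 thioredoxin and peroxiredoxin genes, SESN2, a stress-induced sestrin, rose by 0.50 ± 0.10 (adjusted p = 0.0355 by limma) and PRDX1, an abundant peroxiredoxin, fell by 0.15 ± 0.03 (adjusted p = 0.0271 by limma). Each of these 2 calls ended without 7 of the 8 libraries, with an adjusted p up to 0.12 for SESN2, which held without attached control replicate 1, and up to 0.0913 for PRDX1, which held without that library as well.

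NFE2L3, a close relative of NFE2L2 in the same family, was the 1 called of 7 tested NRF2 regulators and related factors. NFE2L3 had 3.48 and 3.50 FPKM in detached knockdown libraries, 7.75 and 8.11 in detached control, 6.40 and 5.52 in attached knockdown and 10.4 and 11.4 in attached control libraries. It fell by 0.88 ± 0.07 on average (adjusted p = 0.00136 by limma), a call that held without any 1 library. KEAP1 and CUL3, which hold NRF2 down, differed by −0.07 and −0.02 on average and did not pass (adjusted p = 0.605 and 0.835 by limma). Of 11 tested iron and haem genes none passed for knockdown (limma, 0 of 11, with 4 at an unadjusted p under 0.05), with a median of −0.03. Of 5 quinone and aldehyde genes 1 passed, EPHX1, an epoxide hydrolase, which fell by 0.42 ± 0.07 (adjusted p = 0.0155 by limma). EPHX1 lost that call without detached knockdown replicate 2 (0.0572), either detached control library (0.0531 and 0.0684) or either attached control library (0.0667 and 0.0566).

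Detachment, averaged over knockdown and control cells, raised 4 of the 46 pathway genes (8.70%) and lowered 7 (15.2%), against 5.48% of all genes higher and 10.1% lower. SQSTM1, the autophagy receptor that also binds KEAP1, had 579 and 571 FPKM in detached knockdown and 614 and 640 in detached control libraries, against 469 and 478 in attached knockdown and 501 and 526 in attached control libraries. It rose by 0.28 ± 0.03 (adjusted p = 0.00108 by limma). IDH1 rose by 0.46 ± 0.06 (adjusted p = 0.00334 by limma) and STEAP3, an endosomal ferrireductase, by 0.23 ± 0.04 (adjusted p = 0.0121 by limma). MAFF, a small MAF partner of NRF2, fell by 0.48 ± 0.07 (adjusted p = 0.00519 by limma), and NFE2L3 fell by 0.52 ± 0.07 (adjusted p = 0.00519 by limma). TFRC, the transferrin receptor for iron uptake, fell by 0.38 ± 0.05 (adjusted p = 0.00433 by limma), and HMOX2, the constitutive haem oxygenase, by 0.33 ± 0.05 (adjusted p = 0.00587 by limma). These 7 calls held without any 1 library, as did the fall of GGCT, an enzyme of glutathione breakdown, by 0.22 ± 0.03 (adjusted p = 0.00523 by limma). TXNRD1, a thioredoxin reductase, fell by 0.18 ± 0.03 (adjusted p = 0.0145 by limma), lost without detached control replicate 1 (0.0504) or attached control replicate 2 (0.0526). GPX4 was higher by 0.10 ± 0.02 (adjusted p = 0.0279 by limma) and MAFK lower, at −0.19 ± 0.05 (adjusted p = 0.0451 by limma), and each lost its call without 7 of the 8 libraries, with an adjusted p up to 0.0916 for GPX4, which held without attached knockdown replicate 2, and up to 0.121 for MAFK, which held without detached control replicate 2.

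**Figure D4:**
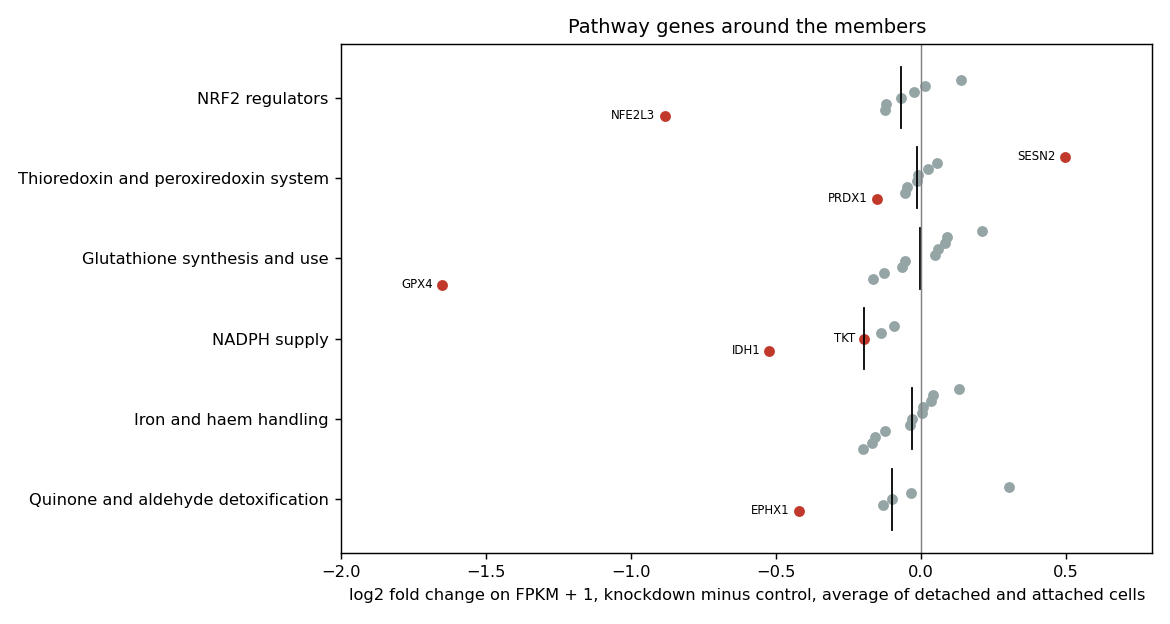
Average log2 fold change of FPKM + 1 by SPIB knockdown over detached and attached cells (horizontal axis) for tested genes of the 6 pathway lists (rows); each point is a gene, red points passed the test and black lines are medians over all tested genes of a list, 1 of which (NADPH supply) is not drawn. GPX4 lies farthest to the left at −1.65, and the 4 NADPH supply genes drawn lie left of 0.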

How the data were processed

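RNA from 8 samples of H1703 cells was sequenced. HISAT, Cuffnorm and build hg19 are named in the submitters' processing notes, with versions not given in the sources used here, and the authors deposited FPKM per locus in 1 table per library. Members and gene lists were chosen with earlier results of these data known. Single-symbol loci of 1 symbol were summed (27204 genes left), and 1961 merged loci were kept apart. Tests used log2(FPKM + 1), a scale on which changes of low genes are understated. Genes at 1 FPKM or more in at least 2 libraries (13438) entered limma 3.58.1 in R 4.3.3 (1 mean per group, intensity trend, 4 residual and 3.42 prior degrees of freedom), two-sided, called at a Benjamini-Hochberg adjusted p under 0.05. On simulated data for the knockdown comparison in detached cells (12991 genes) 86% of changes of 0.5 log2 and 99% of changes of 1 log2 were called, and so were 9 genes without a planted change. Changes were planted only in genes well above the filter. No smaller change was planted, so the simulation does not show how often changes as small as those of NQO1 or FTH1 would be called. Genes named are the members, list genes called in any comparison, at most 4 a list, and the 5 genes most like NQO1, FTH1 and NFE2L2, while 1 gene that meets this rule is not reported here and KEAP1, CUL3 and AGPS were named after their values were seen. The GCLC to GCLM ratio used an exact permutation test in scipy 1.17.1, and exact sign flips of paired differences with the replicate block. Alternatives covered the pseudocount, filters, scaling, a replicate block, a mitochondrial locus covariate, a fit per comparison and each library left out.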

Additional observations from a re-analysis of the deposited data

How the results depend on the processing

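Of 3075 alternative values of single genes and loci, 2824 stayed on their side of the threshold, 231 lost a call, 20 gained one and 0 changed sign among called values. No scaling moved the median of all genes by over 0.1 log2. Members called by knockdown in detached cells numbered 2, and 1 with the mitochondrial locus covariate or no filter. They numbered 0 without the intensity trend or with only the groups compared. In attached cells there were 3, and 1 with the covariate, no filter or only the groups compared. There were 0 in attached cells without the trend, and 2 with quantile normalization, where HMOX1 was lost. For the averaged knockdown effect 4 became 2 with no filter and 1 without the trend. For averaged detachment 2 became 1 and 0 under the same settings. On detachment of knockdown cells 1 became 0 without the trend or with only the groups compared and 2 with quantile normalization, and in control cells 0 became 1 with quantile normalization. With 1 library left out the counts ranged over 0 to 1 (knockdown, detached), 1 to 2 (attached), 2 to 4 (averaged knockdown), 1 to 2 (averaged detachment), 0 to 1 (detachment of knockdown cells) and 0 to 0 (control cells, interaction). The GCLC to GCLM difference of 0.26 ranged over 0.16 to 0.35. All genes called numbered 99, 248, 570, 956, 423 and 2093 for knockdown in detached and attached cells and on average, and for detachment of knockdown cells, of control cells and on average. The processing alternatives gave 6 to 146, 28 to 301, 262 to 655, 188 to 1123, 56 to 582 and 1274 to 2158. One library fewer gave 10 to 69, 37 to 144, 223 to 334, 151 to 722, 56 to 265 and 1101 to 1440. Fewer samples enter the fits with a library left out or with only the groups compared, and without the filter more genes enter the adjustment; for the other settings the cause was not tested.

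The deviations of same-numbered libraries from their group means correlated by 0.174 to 0.267 among detached knockdown, detached control and attached control, and by −0.185 to −0.139 where attached knockdown was 1 of the pair. Since not every pair was positive, the numbers were not taken to pair the samples. In all 4 groups NFE2L2 was higher and GCLC lower in replicate 1. With a replicate block the members' counts were 2 and 3 for knockdown in detached and attached cells and 4 on average. They were 2 for averaged detachment, 1 on detachment of knockdown cells, and 0 for control cells and for the interaction. FTH1 missed the threshold in detached (adjusted p = 0.0668 by limma) and attached cells (0.0522), and NFE2L2 passed in detached (0.049) and attached cells (0.0448). The GCLC to GCLM difference stayed 0.26 with the block (p = 0.375 by exact sign flips of the differences between same-numbered libraries). With so few pairs that test cannot reach a p under 0.05, so it does not decide whether the ratio differed. A crossed block, with the numbers of the attached knockdown libraries exchanged, was chosen after seeing the data. It splits the libraries as the mitochondrial locus does, so it is the same fit as that covariate and adds no separate result. Depth is unknown and each group has 2 libraries, which limits the precision of every value.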
